A study of Mus musculus with 84 samples.

Results

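Intestinal fat was compared with primary mammary tumors of mice to find which RNAs mark fat. A mammary gland is taken out with the fat pad it grows in, whereas a tumor brings few fat cells along, so a gene of fat cells can seem to be lost in a tumor merely because fat was left behind. The comparison was defined by the sample titles and took the 3 arrays titled as fat and the 35 arrays titled as primary tumors, 23 of MMTV-Wnt-1 and 12 of MMTV-Neu transgenic mice. These 38 samples were among 65 hybridised to cDNA arrays of 15360 clones and among 84 samples of the series. The fat came from the intestinal fat of nontransgenic virgin FVB mice at 12 weeks. MMTV-Neu tumors arose in FVB mice of 32 to 60 weeks that carry a rat cDNA of wild-type Neu, a receptor tyrosine kinase. MMTV-Wnt-1 tumors arose in mice of mixed FVB, SJL and C57BL/6 background, mostly FVB, that express Wnt-1, a secreted growth signal. Their stated age of 9 to 56 weeks also covers MMTV-Wnt-1 tumors on another array type that were not compared here. In both lines the transgene is driven by the mouse mammary tumor virus promoter, which is active mainly in mammary epithelium. For orientation, 5 virgin mammary glands of nontransgenic mice and 7 hyperplastic glands of MMTV-Wnt-1 transgenic mice, all at 9 weeks, are given beside the fat and the tumors. Site, age, strain and tumor state differ together between fat and tumors and cannot be told apart.

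White fat is made of large adipocytes, each filled by a single droplet of triglyceride, together with capillaries, fibroblasts, macrophages and, around the gut, a mesothelial covering. Adipocytes take up fatty acids that lipoprotein lipase releases at the capillary wall, carry them bound to Fabp4, store them behind perilipin and Cidec on the droplet surface, and release them again through the lipases Pnpla2, Lipe and Mgll. The nuclear receptor PPAR-gamma and the factor C/EBP-alpha drive this programme, and adipocytes secrete the hormones adiponectin, leptin and, in mice, resistin.

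Each value below is a log2 ratio of the sample, labelled with Cy5, to 1 common reference RNA pooled from several normal organs, labelled with Cy3. A value of 0 therefore means the level of that pool, and values can be set against each other within a clone but not between clones. Differences are fat minus tumors on the log2 scale with the standard error of the fit, folds are ratios of geometric means, and adjusted p is from limma with Benjamini-Hochberg adjustment over all clones, or over all genes where clones of a gene were averaged. The call was made at an adjusted p under 0.05. Because these are extracts of whole tissue, fewer cells of a type and less RNA per cell cannot be told apart.

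The array of fat sample 44 stood apart from those of samples 45 and 46, so results are given with it and without it. Its log2 ratios had an SD of 2.59 over all clones, against 1.13 and 0.969 for samples 45 and 46. On it 1263 clones (8.22%) had a ratio under 0.01, against 29 and 16 clones on the other fat arrays. Where sample 44 was that low, the median log2 ratio was -1.08 in sample 45, -0.69 in sample 46 and -0.26 in the tumors. A further 1094 of its clones carried a single repeated value, 0.41, and the most repeated value of any other array covered at most 793. Over 15353 clones the fat arrays 45 and 46 correlated with r = 0.858, and sample 44 correlated with them with r = 0.595 and 0.615. All 3 were nearer to virgin glands (median r = 0.506, 0.685 and 0.74 for samples 44, 45 and 46) than to tumors (0.209, 0.246 and 0.267). These correlations run across clones of single arrays and carry no test.

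**Figure D1:**
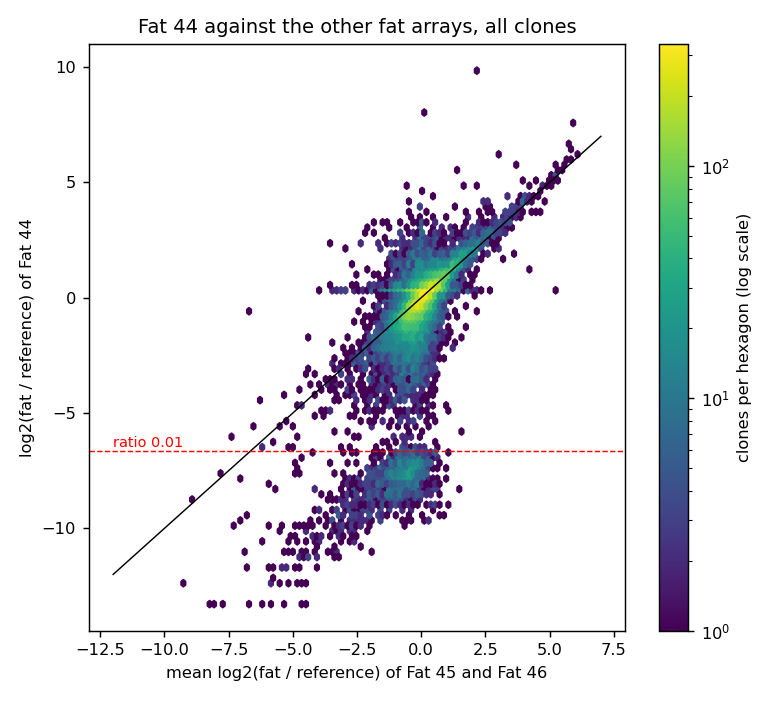
Log2 ratio of every clone on the array of fat sample 44 (vertical axis) against the mean of fat samples 45 and 46 (horizontal axis), shaded by the number of clones. A second cloud lies under the red line that marks a ratio of 0.01, where sample 44 had 1263 clones, and a horizontal stripe at 0.41 holds its 1094 clones of 1 repeated value.

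Of 15360 clones, 3343 were higher in fat (21.8%) and 4851 were lower (31.6%). At least 3-fold, 869 clones were higher (5.66%) and 1614 lower (10.5%). Without sample 44, 2775 clones were higher (18.1%), 838 of them at least 3-fold. Of the 3343 rises 2585 were called again without sample 44, and 758 were called only with it. The falls shrank, to 2754 clones (17.9%), of which 427 were at least 3-fold. Of the 1614 clones called at least 3-fold lower with 3 fat arrays, 386 were so called again without sample 44, and 972 of the other 1228 had a ratio under 0.01 on that array. For the rises of at least 3-fold 787 of 869 were so called again. Every fat array lay above every tumor in 1882 clones (12.3%) and below every tumor in 1414 (9.21%). Among the 869 clones at least 3-fold higher, 789 were above every tumor. The means ran from fat through virgin gland and hyperplastic gland to tumor in 686 of these 869 clones, and in 117 the virgin glands were above fat. Averaged per gene, 1646 of 7766 genes were higher (21.2%) and 2560 lower (33%), with a median difference over all genes of -0.14. Without sample 44 these were 1427 (18.4%) and 1458 (18.8%), with a median of -0.01. Those percentages are what each group of genes below is to be read against.

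Genes of fat storage were among the larger rises, exceeded by Car3 and by a few clones of doubtful name that are described further on. Among them, adiponectin (Adipoq), the droplet protein Cidec, first described as fat-specific gene 27, and the fatty acid receptor Cd36, are shown here with the 250 bases before a transcription start, because they rose together and belong to separate steps of the adipocyte programme, secretion, storage and uptake. The sequences are from RefSeq on GRCm38.p6, written on the gene's strand, at chr16:23146286-23146535 on the plus strand for Adipoq, chr6:113435761-113436010 on the minus strand for Cidec and chr5:17835897-17836146 on the minus strand for Cd36. Capitals mark matches on either strand to AGGTCA, the core hexamer that PPAR-gamma and other nuclear receptors recognise, and to CCAAT, the box bound by NF-Y and similar factors.
Adipoq: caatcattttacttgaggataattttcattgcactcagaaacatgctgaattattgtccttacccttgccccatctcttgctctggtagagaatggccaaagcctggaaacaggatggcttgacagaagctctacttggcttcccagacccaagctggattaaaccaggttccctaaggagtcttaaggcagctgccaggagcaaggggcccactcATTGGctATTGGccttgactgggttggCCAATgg
Cidec: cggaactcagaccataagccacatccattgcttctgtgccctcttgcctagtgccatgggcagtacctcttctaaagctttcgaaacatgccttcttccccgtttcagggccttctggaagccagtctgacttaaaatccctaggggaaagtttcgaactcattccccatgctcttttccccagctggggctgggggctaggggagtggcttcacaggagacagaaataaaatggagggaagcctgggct
Cd36: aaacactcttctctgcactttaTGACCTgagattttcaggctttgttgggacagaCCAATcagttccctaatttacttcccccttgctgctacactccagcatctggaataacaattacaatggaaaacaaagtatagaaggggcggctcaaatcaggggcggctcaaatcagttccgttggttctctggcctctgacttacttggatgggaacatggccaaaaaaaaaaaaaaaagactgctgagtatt
The Adipoq stretch held CCAAT 3 times, that of Cd36 held AGGTCA and CCAAT once each, and that of Cidec held neither, which says only that these letters are not in this window. AGGTCA stood in 18.2% of the 44 promoter entries of adipocyte list genes that were at least 3-fold higher, in 12% of the 575 entries of all genes at least 3-fold higher, in 12.6% of the 1247 entries of genes at least 3-fold lower, in 11.2% of the 7989 entries of genes on the arrays and in 14% of all 32851 entries. CCAAT stood in 34.1%, 33.2%, 33.8%, 34.5% and 33.8% of the same sets. TATAAA, the TATA box letters, stood in 11.4%, 10.4%, 6.82%, 7.18% and 12.4%. A match is a description of the letters and not evidence of binding.

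Cidec, which makes lipid droplets grow and fuse, read 5.79, 5.08 and 5.25 in fat samples 44, 45 and 46. Its tumors ran from -4.82 through a median of -2.19 to -1.04. All fat arrays were thus far above all tumors, and the difference was 7.65 ± 0.45, a 201-fold rise (adjusted p = 3.69e-17, limma), or 174-fold without sample 44. Its other clone differed by 0.20 (adjusted p = 0.189, limma), so that the gene, with both clones averaged, rose 15.2-fold. Lipoprotein lipase (Lpl), which frees fatty acids from circulating triglyceride, read 4.07, 4.11 and 3.87 against -4.10, -3.49 and -2.16 for the lowest, median and highest tumor. Here too the groups were wide apart, with a 172-fold rise (7.43 ± 0.24, adjusted p = 3.6e-25, limma) and 169-fold without sample 44. Its other clone rose 24.9-fold. Fabp4, the fatty acid carrier of adipocytes, read 5.62, 5.54 and 5.44 against tumors of -4.74, -2.96 and -1.06. That is a 349-fold rise (8.45 ± 0.59, adjusted p = 7.12e-15, limma), 338-fold without sample 44, and its second clone rose 143-fold. Scd1, the desaturase that makes the monounsaturated fatty acids of stored fat, had clones that rose 283-fold, 37.9-fold and 1.64-fold.

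Cd36, the fatty acid receptor and scavenger receptor, was the case in which the tumor types differed most among the storage genes named here. Fat read 3.35, 3.34 and 3.19 and the tumors ran from -5.97 through -3.81 to 0.60. No tumor reached the fat arrays, and the clone rose 93.8-fold (6.55 ± 1.12, adjusted p = 6.54e-06, limma), or 92-fold without sample 44. The Wnt-1 tumors averaged -4.43 ± 0.82 (SD, n = 23) and the Neu tumors -1.0 ± 1.5 (SD, n = 12). That difference of 3.43 between tumor types was itself significant (adjusted p = 7.41e-10, limma). A second Cd36 clone rose 10.4-fold and the same tumor difference was 1.14 on it. The third clone fell by 0.37 (adjusted p = 0.0438, limma), a call that was lost without sample 44 (adjusted p = 0.148).

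Of 46 genes listed for adipocyte lipid handling, 36 were measured. As genes, 28 were higher in fat and 2 lower, against 21.2% and 33% of all genes, with a median difference of 2.05 (2.28 without sample 44). The mean over the list was 1.10, 1.15 and 1.21 in the fat arrays and -1.76 to -0.65 in the tumors, with virgin glands at 0.66 to 1.28 and hyperplastic glands at -0.14 to 0.18. The list thus placed virgin glands near fat and hyperplastic glands between fat and tumors. Pnpla2, the lipase that opens triglyceride breakdown, was 12.2-fold higher, and the lipases Lipe and Mgll that follow it were 8.63-fold and 16-fold higher. Bscl2, the seipin of droplet assembly, was 6.59-fold higher and Gpd1, which makes glycerol phosphate for triglyceride, 28-fold. Dgat2, which adds the last fatty acid, was 19.2-fold higher and Fasn, fatty acid synthase, 6.31-fold. Perilipin 1 (Plin1), a defining droplet coat protein, rose 1.5-fold on this array. The genes called lower were Pck1 and Plin4, and in each 1 array stood far from the others. Pck1, which makes glycerol from smaller precursors, read -7.80 in sample 44 but -0.72 and -0.21 in the others, and fell by 3.11, or by 0.66 without sample 44 (adjusted p = 0.0119, limma). Plin4, another droplet coat protein, read -7.93 in sample 45 and 0.62 and 0.71 in samples 44 and 46. Its tumors ran from -1.32 to 0.55, so samples 44 and 46 lay above every tumor. The called fall of Plin4, 3.97-fold or 10.6-fold without sample 44, thus rested on sample 45. Plin2, Elovl6, Fads1, Srebf1, Abhd5 and Acacb did not pass the test.

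**Figure D2:**
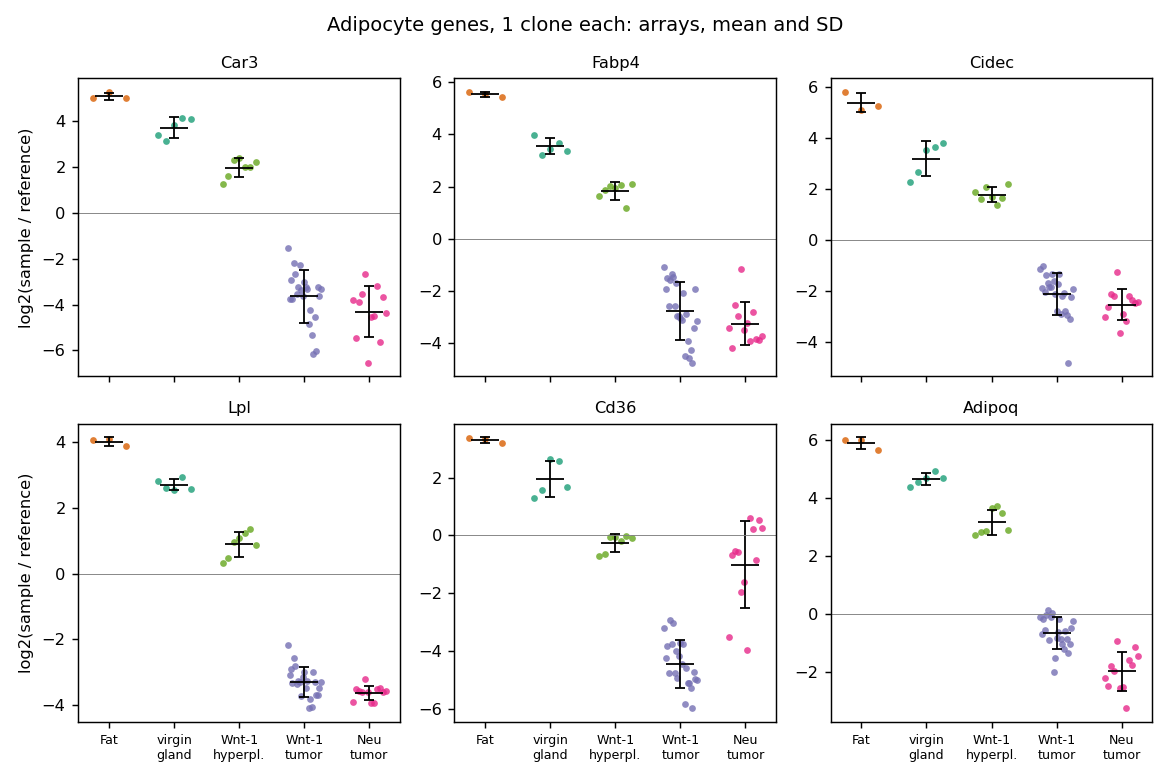
Log2 ratio to the reference pool of Car3, Fabp4, Cidec, Lpl, Cd36 and Adipoq on every array of intestinal fat, virgin gland, Wnt-1 hyperplastic gland, Wnt-1 tumors and Neu tumors, with group means and SD. Fat is highest for each, the glands step down from virgin to hyperplastic, and the Neu tumors lie above the Wnt-1 tumors for Cd36 and below them for Adipoq.

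The secreted products of adipocytes rose with the storage genes. Adiponectin, which raises insulin sensitivity in liver and muscle, read 6.01, 6.02 and 5.68 in fat. Its tumors ran from -3.23 through -0.92 to 0.16, all far below, for a 128-fold rise (7.00 ± 0.49, adjusted p = 7.15e-15, limma), 123-fold without sample 44. Wnt-1 tumors averaged -0.64 ± 0.55 (SD, n = 23) and Neu tumors -1.96 ± 0.67 (SD, n = 12), a difference of -1.31 for Neu minus Wnt-1 (adjusted p = 1.12e-06, limma), opposite in sign to that of Cd36. Virgin glands averaged 4.66 ± 0.21 (SD, n = 5) and hyperplastic glands 3.18 ± 0.43 (SD, n = 7). Resistin (Retn) read 4.29, 5.02 and 4.65 against tumors of -5.31, -3.02 and -1.37, a 243-fold rise (7.92 ± 0.55, adjusted p = 4.77e-15, limma). Leptin (Lep), the satiety hormone, read 7.59, 6.21 and 5.67 on 1 clone, with tumors between -0.35 and 1.14, a 68.1-fold rise, while on its other clone fat and tumors differed by 0.11 (adjusted p = 0.73, limma). Igf1, a growth factor also made by fat, was 10.6-fold higher. Over the adipokine list 7 of 12 measured genes were higher and 1 lower, with a median difference of 1.38 (1.47 without sample 44). The 1 lower, Chrdl1, a BMP inhibitor, read -8.76 in sample 44 and -0.02 and -0.25 in the others, and its call was lost without sample 44 (adjusted p = 0.376, limma).

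The regulators of fat cell identity were higher as well, 18 of 23 measured, with none lower and a median difference of 1.75 (1.86 without sample 44). The clones of Pparg, the nuclear receptor that directs adipocyte formation, rose 56.1-fold, 28.8-fold and 2.42-fold. On the first of them fat read 3.90, 3.88 and 3.60 and the tumors -6.80, -1.88 and -0.70 at their lowest, median and highest. Cebpa, its partner factor, was 6.26-fold higher as a gene and Ebf1, another early factor of the lineage, 5.39-fold. The growth hormone receptor Ghr was 5.65-fold higher and the adiponectin receptor Adipor2 3.69-fold. Caveolin 1 (Cav1) and Cavin1, which shape the surface pits that crowd the adipocyte membrane, were 41.9-fold and 23.8-fold higher. Tnmd, Rxra, Cebpd, the insulin receptor Insr and Stat5a did not pass the test.

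Carbonic anhydrases, which interconvert carbon dioxide and bicarbonate, did not move as a family. Car3, the abundant form of white fat and muscle, read 4.99, 5.26 and 5.00 in fat, and the tumors ran from -6.53 through -3.64 to -1.54. It rose 498-fold (8.96 ± 0.66, adjusted p = 2.68e-14, limma) and its second clone 494-fold, the largest rises of any list gene. Virgin glands averaged 3.71 ± 0.45 (SD, n = 5) and hyperplastic glands 1.96 ± 0.40 (SD, n = 7), both between fat and every tumor. Membrane-anchored Car4 rose 11.9-fold, cytosolic Car13 3.26-fold and mitochondrial Car5b 1.99-fold. Car12, a membrane form of epithelia that hypoxia induces, read -8.59, -2.93 and -3.29 in fat and -1.98, 0.08 and 3.01 in tumors. It fell 46.3-fold, or 13-fold without sample 44, with all fat arrays below all tumors. Car8, which lacks the enzyme activity, fell 2.51-fold (adjusted p = 0.0297, limma), and the call was lost without sample 45 (adjusted p = 0.153) or sample 46 (0.129). Car1, Car2 and Car6 did not pass the test, with differences of 0.58, 0.06 and -1.96. Car6, the secreted form, averaged 5.39 ± 1.05 (SD, n = 12) in Neu tumors and -0.45 ± 0.59 (SD, n = 23) in Wnt-1 tumors, with fat at 0.41, -1.14 and -0.48, so a mean over both tumor types described neither.

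Mitochondrial genes were higher by smaller factors. For fatty acid oxidation and branched-chain amino acid breakdown, 22 of 27 measured genes were higher and 2 lower, with a median difference of 1.13. Without sample 44 these were 18 higher and none lower, with a median of 1.20. Crat, which moves acetyl groups onto carnitine, read 2.18, 2.34 and 2.11 against tumors of -0.78, -0.29 and 0.08, a 5.72-fold rise (adjusted p = 3.61e-19, limma). Pyruvate carboxylase (Pcx), which refills the citric acid cycle and feeds fatty acid synthesis, rose 14.8-fold, Decr1, needed to burn unsaturated fatty acids, 4.47-fold, and the electron carrier Etfb 3.77-fold. The 2 genes called lower, Bdh1 and Mmut, were called lower only with sample 44. In the respiratory chain and citric acid cycle, 18 of 24 were higher and 2 lower (Atp5g1 and Sdhd), with a median of 0.81 (0.90 without sample 44, where Sdhd lost its call). Ogdh of the citric acid cycle rose 2.71-fold and the complex I subunits Ndufb9 and Ndufb3 2.16-fold and 2.51-fold. Idh3a, also of the cycle, rose 2.48-fold. These genes did not set fat apart from virgin glands. The oxidation list mean was 0.15, 0.83 and 0.72 in fat and 0.48 to 1.15 in virgin glands. That of the respiratory chain list was 0.40, 0.67 and 0.48 in fat and 0.60 to 1.17 in virgin glands. Virgin glands were also high for skeletal muscle genes, with list means of 1.96 to 2.80 against -1.13, -0.61 and -0.33 in fat. The part of muscle in the gland values was not tested.

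Genes that set brown fat apart gave no uniform picture. Among 8 measured of 17 listed, Cidea, Kcnk3, Otop1 and Pdk4 were higher and Ckmt2 lower, with a median of 0.60 (0.84 without sample 44). Cidea, a droplet protein of brown fat and of active white fat, rose 10.1-fold but stayed below the reference pool, at -2.90, -1.20 and -1.51 in fat. Virgin glands were above fat for Cidea, with a mean of 0.51. The list mean was -1.56, -0.45 and -0.39 in fat and -0.37 to 0.26 in virgin glands. Ucp1, the uncoupling protein that defines brown fat, differed by 0.24 (adjusted p = 0.533, limma). Ckmt2, mitochondrial creatine kinase, fell with sample 44 and not without it (adjusted p = 0.177, limma). Pdk4 likewise lost its call without sample 44 (adjusted p = 0.234) and Slc27a2 gained one (0.037).

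**Figure D3:**
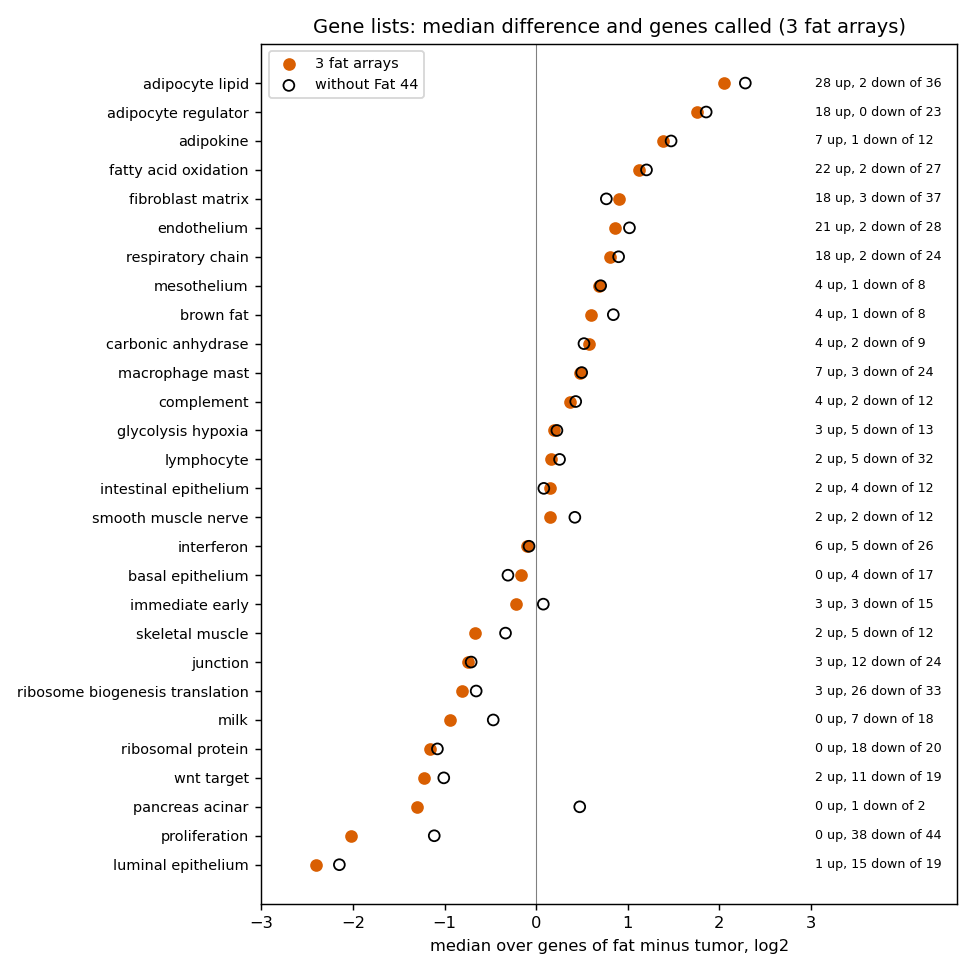
Median difference, fat minus tumors (log2), over the measured genes of each of 28 lists, with 3 fat arrays (filled) and without sample 44 (open), and the counts of genes higher and lower at the right. Adipocyte lists lie highest, luminal epithelium and proliferation lowest, and the proliferation median moves from -2.02 to -1.11 without sample 44.

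Genes listed for vessels and connective tissue were also higher in fat than in tumors. For endothelium 21 of 28 genes were higher and 2 lower, with a median of 0.86 (18 higher and 2 lower, and a median of 1.02, without sample 44). Nos3, the endothelial nitric oxide synthase, rose 6.42-fold, the adrenomedullin receptor partner Ramp2 5.26-fold, the junction protein Esam 3.77-fold and the VEGF receptor Flt1 2.88-fold. Cldn5 and Fli1 were the genes called lower. Of the fibroblast and matrix list 18 of 37 were higher and 3 lower, with a median of 0.90 (16 higher and 2 lower, and a median of 0.77, without sample 44). The basement membrane protein Nid1 rose 9.45-fold, the collagen-binding proteoglycan Lum 9.61-fold, Col6a1, a collagen of adipocyte coats, 4.75-fold and dermatopontin (Dpt) 3.39-fold. The genes called lower there were Col11a1, tenascin C (Tnc) and Lamc1, and without sample 44 Tnc and Lamc1 lost their calls (adjusted p = 0.369 and 0.902, limma), with the difference of Lamc1 going from -1.09 to 0.09. The fibroblast and matrix list mean was 0.39, 0.57 and 0.67 in fat and as high in virgin glands, at 0.36 to 0.77. For endothelium it was 0.17, 0.20 and 0.25 in fat and -0.11 to 0.09 in virgin glands. The part of these cells in the differences was not tested.

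Markers of the mesothelium, the sheet that covers abdominal fat, were higher for 4 of 8 measured genes and lower for 1, with a median of 0.69 (0.70 without sample 44). The 1 lower, Krt7, lost its call without sample 44 (adjusted p = 0.0655, limma). Efemp1 rose 8.48-fold, with fat at 2.70, 1.36 and 2.39 and tumors at -1.61, -0.88 and -0.27. Nkain4 rose 4.63-fold, Upk1b 1.91-fold and Gpm6a 38.9-fold, and in sample 44 Nkain4 and Gpm6a carried its repeated value of 0.41. The mean over the list was 0.34, 0.54 and 0.56 in fat, above the tumors (-1.60 to -0.20) and both gland groups (-0.33 to -0.17). Msln, Wt1 and Upk3b, better known mesothelial genes, were not analysed here. The part of mesothelium in the differences was not tested.

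For lists of tissues outside fat and mammary gland, the shares called are to be read against all genes, of which 21.2% were higher and 33% lower. With 12 or fewer measured genes each, these lists did not stand out by their rises. The intestinal epithelium list gave 2 of 12 higher and 4 lower, with a median of 0.16 (none higher and 3 lower, and a median of 0.08, without sample 44), and list means of -2.87, -0.94 and -0.75 in fat against -1.43 to 0.25 in tumors. Its rises were small (Lgals4, 1.43-fold, and Phgr1, 1.48-fold) and neither held without sample 44. Guca2a, the gut peptide guanylin, fell 7.83-fold. Of pancreas acinar genes 2 were measured, and neither Sycn nor Clps was higher (Sycn fell with sample 44, and the median was -1.30 with it and 0.48 without). In the list of smooth muscle and nerve 2 of 12 were higher (Sox10, 3.49-fold, and Prph) and 2 lower (Lmod1 and Smtn), with a median of 0.15 (0.42 without sample 44, where Smtn lost its call). Skeletal muscle gave 2 of 12 higher and 5 lower, with a median of -0.67, and 2 higher and 2 lower without sample 44, with a median of -0.33. Its rises were Atp2a1, the calcium pump of fast muscle, 7.94-fold, and Pvalb, 2.79-fold, while creatine kinase Ckm did not pass the test. The part of these tissues in the fat extracts was not tested.

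Immune genes were mixed, and their counts are to be read against 21.2% higher and 33% lower among all genes. In the list of macrophages and mast cells 7 of 24 were higher and 3 lower, with a median of 0.48. Without sample 44 these were 6 higher and 1 lower, with a median of 0.50, and the fall of C1qb, a complement subunit made by macrophages, was no longer called (adjusted p = 0.353, limma). The Fc receptor Fcgr3 rose 4.84-fold, and Clec10a and Folr2, known from resident macrophages, 6.80-fold and 3.86-fold. Tyrobp, a signalling adaptor, rose 2.18-fold. Cd68, a lysosomal protein of macrophages, turned with 1 array. It read -9.38 in sample 44 and 1.19 and 0.69 in the others, so that it was called lower with sample 44 (-2.63) and higher without it (0.81, adjusted p = 0.0283, limma). Lymphocyte genes gave 2 of 32 higher and 5 lower, with a median of 0.16 (3 higher and 1 lower, and a median of 0.26, without sample 44), and list means of -1.58, -0.74 and -0.63 in fat against -1.84 to -0.61 in tumors. Ighm, the immunoglobulin M heavy chain, rose 12.6-fold, Cd8a rose 1.88-fold and Cd3e fell by 0.46. Complement genes gave 4 of 12 higher and 2 lower (Hc and C1qb), with a median of 0.36. Neither fall was called without sample 44, where the median was 0.43. Cfb, a factor of the alternative pathway, rose 7.11-fold, and C1ra rose 5.12-fold. Interferon-induced genes gave 6 of 26 higher and 5 lower, with a median of -0.10 (5 higher and 3 lower, and a median of -0.08, without sample 44). Among these the chemokine Cxcl9 rose 7.99-fold and the GTPase Gbp2 5.02-fold, whereas the antiviral synthetase genes Oas1g and Oas2 fell 2.41-fold and 5.86-fold (2.45-fold and 11.1-fold without sample 44). Immediate early genes gave 3 higher and 3 lower of 15, with a median of -0.22 (3 higher and 1 lower, and a median of 0.08, without sample 44), Ier2 falling 3.63-fold and Klf6 rising 2.02-fold.

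Genes of mammary epithelium were among the largest falls. For 19 measured luminal genes 15 were lower and 1 higher, with a median of -2.41 (-2.15 without sample 44). List means were -3.64, -1.92 and -1.80 in fat and 0.30 to 0.83 in tumors, with virgin glands at -0.48 to -0.17. Lcn2, the iron-binding lipocalin of inflamed and cancerous epithelium, read -6.32, -5.62 and -6.08 in fat. The tumors ran from -0.14 through 1.44 to 3.90, so the groups were wide apart on all arrays. It fell 224-fold (-7.81 ± 0.64, adjusted p = 7.21e-13, limma), and 201-fold without sample 44. Cd24a, a surface protein of luminal cells, was even across the fat arrays, at -4.58, -4.55 and -4.73, and fell 16.3-fold (16.6-fold without sample 44). Ehf, an epithelial ETS factor, read -1.67, -1.64 and -2.31 against tumors of 0.61 to 2.43 and fell 11.2-fold (12-fold). For these genes the size of the fall did not rest on sample 44.

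For others it did. E-cadherin (Cdh1), the adhesion protein that holds epithelia together, read -9.83 in sample 44 and -2.75 and -2.11 in samples 45 and 46, against tumors of 0.64, 1.64 and 2.48. It was below every tumor on each fat array, and fell 85.5-fold with sample 44 and 15.5-fold without it. Elf5, the factor of alveolar secretory cells, read -11.29, -4.67 and -4.74 and fell 160-fold, or 35-fold without sample 44. Rab25, an epithelial trafficking GTPase, fell 77.7-fold on 1 of its 2 clones, or 18.1-fold. As a gene it fell 41-fold, or 15.5-fold. Kit, the stem cell factor receptor found on luminal progenitors, fell 73.4-fold as a gene, or 15.7-fold. Sox9, a progenitor factor, fell 82.7-fold on 1 clone, or 16.1-fold, and 5.17-fold on the other. Outside the lists, Dcaf12, a ubiquitin ligase adaptor, read -13.29, -4.75 and -4.09 and fell 354-fold, or 45.7-fold. The value -13.29 is a ratio of 0.0001, the smallest step of these data. Fnbp1l, of membrane bending, fell 321-fold, or 71.1-fold. Trim59 was low in samples 44 and 45, at -9.38 and -10.70, and less so in sample 46, at -2.87.

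**Figure D4:**
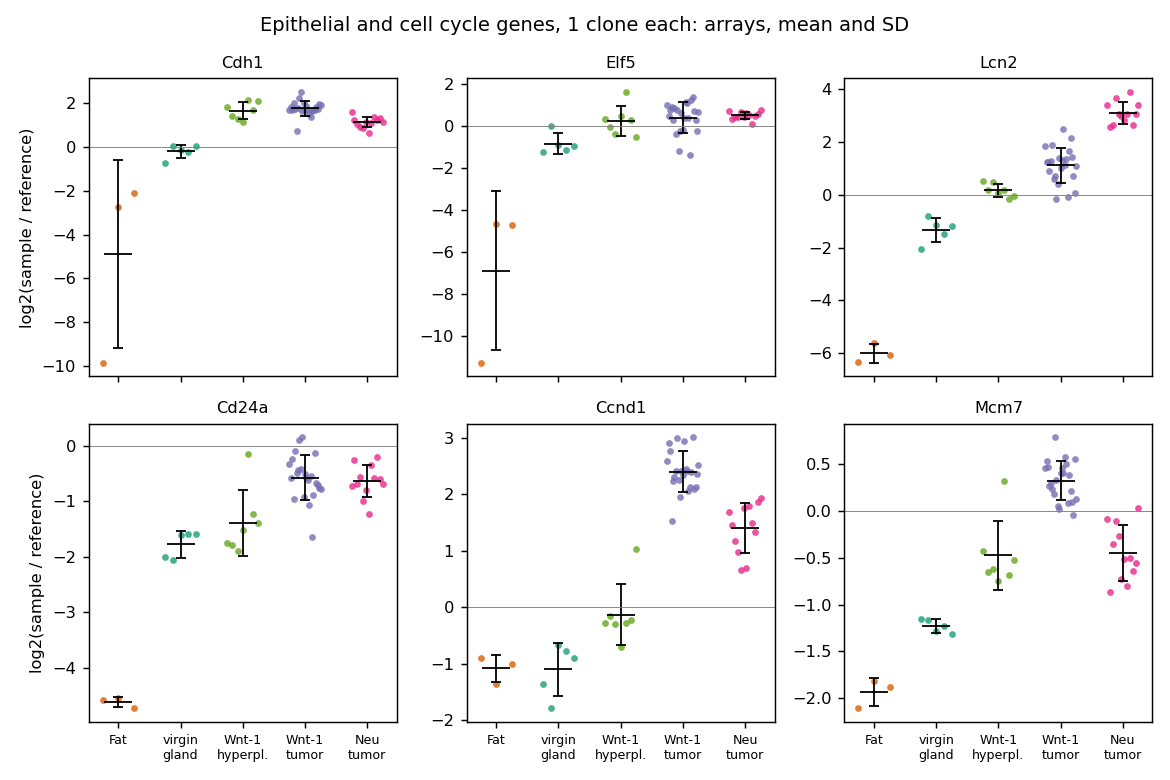
Log2 ratio to the reference pool of Cdh1, Elf5, Lcn2, Cd24a, Ccnd1 and Mcm7 on every array of the same 5 groups, with means and SD. Fat lies below every tumor in each of these genes, and sample 44 is the far-out point for Cdh1 and Elf5 but not for Lcn2, Cd24a, Ccnd1 or Mcm7.

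Cell junction genes followed the luminal ones, with 12 of 24 lower and 3 higher and a median of -0.75 (-0.71 without sample 44). The claudin Cldn7 fell 12.2-fold, Crb3 of apical polarity 21.5-fold and the desmosome cadherin Dsg2 34-fold, and without sample 44 these falls were 6.59-fold, 6.41-fold and 6.74-fold. Cldn4, another claudin, was higher in fat (2.42-fold), and it was also the 1 gene of the luminal list that rose. Milk genes gave 7 of 18 lower and none higher, with a median of -0.94 (5 lower and a median of -0.47 without sample 44). Mfge8, of milk fat globules, fell 2.87-fold, and Csn3, a casein, read -11.70, -5.49 and -5.30 against tumors of -6.49 to 2.06, a fall of 82.4-fold, or 19.2-fold without sample 44 (adjusted p = 0.0405, limma). Wnt-1 tumors averaged -2.57 ± 1.54 (SD, n = 23) for Csn3 and Neu tumors 1.62 ± 0.33 (SD, n = 12). Basal and myoepithelial genes gave 4 of 17 lower (Itga6, Sfn, Krt14 and Cnn2) and none higher, and a median of -0.17, against 33% lower among all genes. Without sample 44 the median was -0.31, Sfn and Cnn2 lost their calls (adjusted p = 0.065 and 0.12, limma) and Jag2 gained one (0.0283). The basal list mean was 0.98 in Wnt-1 tumors and -0.70 in Neu tumors, with fat between them at 0.22, -0.01 and 0.05. The pooled median of this list therefore described neither tumor type.

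Cell division genes were lower in fat, 38 of 44 measured with none higher, and a median of -2.02. Without sample 44 they were 32 of 44 and the median -1.11, against 18.8% of all genes. List means were -3.92, -1.34 and -1.11 in fat and -0.32 to 0.72 in tumors. Ccnd1, a cyclin that starts the cell cycle and also a Wnt target, read -0.90, -1.35 and -0.99 against 0.67, 2.13 and 3.01, with no overlap. It fell 8.83-fold (9.41-fold without sample 44). Uhrf1, which keeps DNA methylation through replication, fell 10.4-fold, or 5.11-fold, the mitotic kinase Bub1b 21.4-fold, or 6.82-fold, and Cdk1, the mitotic driver, 7.00-fold, or 4.97-fold. Among listed Wnt targets 11 of 19 were lower and 2 higher, with a median of -1.22 (9 lower and 2 higher, and a median of -1.01, without sample 44). The Wnt inhibitor Nkd1 fell 7.34-fold, Myc 10.5-fold and Rnf43, which removes Wnt receptors, 9.30-fold, or 6.22-fold, 6.58-fold and 4.07-fold without sample 44. Apcdd1 was 8.96-fold higher and Twist1 was the other rise. Axin2 did not pass the test. The mean over the Wnt target list was 1.03 in Wnt-1 tumors and 0.12 in Neu tumors, with fat at -1.18, -0.29 and -0.15.

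Protein synthesis genes were lower too. For ribosomal proteins 18 of 20 measured were lower and none higher, with a median of -1.16 (-1.08 without sample 44, where the same number was called). List means were -0.53, -0.05 and -0.28 in fat samples 44, 45 and 46 and 0.39 to 1.22 in the tumors, so all 3 fat arrays lay below every tumor. Rpl17 read -0.44, -0.03 and -0.41 against tumors of 1.08, 1.69 and 2.16 and fell 3.85-fold (adjusted p = 3.39e-14, limma), Rpl23 fell 2.88-fold, Rpl35a 3.13-fold and Rpl13a 3.26-fold. Near-identical pseudogene copies of ribosomal protein genes can share hybridisation, which leaves their assignment uncertain. In ribosome assembly and translation 26 of 33 were lower and 3 higher, with a median of -0.81 (20 lower and 2 higher, and a median of -0.66, without sample 44). Pes1 and Nop56, of ribosome assembly, fell 2.40-fold and 4.68-fold, and the arginine tRNA synthetase Rars 5.22-fold, or 1.95-fold, 2.44-fold and 2.31-fold without sample 44, whereas the phenylalanine tRNA synthetase subunit Farsa was 7.55-fold higher. Glycolysis and hypoxia genes gave 3 of 13 higher and 5 lower, near the 21.2% and 33% of all genes, with a median of 0.20 (0.23 without sample 44). Bnip3, of mitochondrial removal, rose 11.7-fold and Ndrg1 1.94-fold, while the glycolytic enzymes Pfkl and Aldoc fell 2.18-fold and 68.4-fold and the oxygen sensor Egln3 50.5-fold. Without sample 44, Aldoc fell 39.5-fold and Egln3 10.3-fold. The mean over the glycolysis and hypoxia list was 0.05 in Wnt-1 tumors and 1.21 in Neu tumors, with fat at -1.63, -0.06 and -0.25.

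The very largest rises belonged to clones whose gene names were not borne out by other clones of the same gene. A clone named Tmem33, a membrane protein of the endoplasmic reticulum, read 5.22, 5.39 and 4.94 in fat and -7.14, -4.25 and -1.50 in tumors. It rose 677-fold, the largest rise with a gene symbol, while the other Tmem33 clone differed by 0.45. Of the Hnrnph1 clones, a splicing factor, 1 rose 589-fold and the others differed by -0.31, -0.45 and -0.73. For Ppp1r7, a phosphatase regulator, 1 clone rose 588-fold and the others differed by -0.09 and -0.71, and for Tmem167b 1 rose 563-fold beside 0.19 and -0.29. Tcf25, with 8 clones, had 1 that rose 389-fold, another that differed by 4.98, and 6 between -0.38 and 1.19. Adipor1, the adiponectin receptor, had 1 clone up 308-fold and the others at 0.20 and -0.05. The single clones of Nfatc2 and Shox2 rose 313-fold and 243-fold and have no second clone to compare.

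Over the 50 arrays of fat, glands and tumors these clones tracked Car3. The Tcf25 clone correlated with a Car3 clone with r = 0.992, the Hnrnph1 clone 0.988, the Ppp1r7 clone 0.987, the Tmem33 clone 0.985, the Tmem167b clone 0.982, the Nfatc2 clone 0.981 and the Adipor1 clone 0.975. Known adipocyte genes lay in the same range, Retn at 0.993, the second Car3 clone at 0.99, Scd1 at 0.99, Fabp4 at 0.982 and 0.979, Cidec at 0.973 and Lpl at 0.97. The arrays share 1 reference RNA and fall into tissue groups, so r describes likeness of pattern and carries no test. The clones were also chosen for their large rises from tumors to fat on these same arrays, and Car3 rose as strongly. A high r was thus largely fixed by the choice and does not bear on what the clones are. Among 2822 genes with several clones, 351 had clones called in both directions. Within the lists there were 15 such genes, C2, Cars, Cd36, Csn1s2a, Gpihbp1, H2-Eb1, Irf8, Lama2, Lamc1, Lars, Ltf, Rasip1, Rxra, Tnfrsf19 and Vwf. The Irf8 clones, a factor of myeloid cells, differed by -4.32, 0.77, 3.98 and 0.59, and those of lactoferrin (Ltf) by -5.55 and 2.04. A direction for these genes depends on the clone, and the identity of the clones was not tested.

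**Figure D5:**
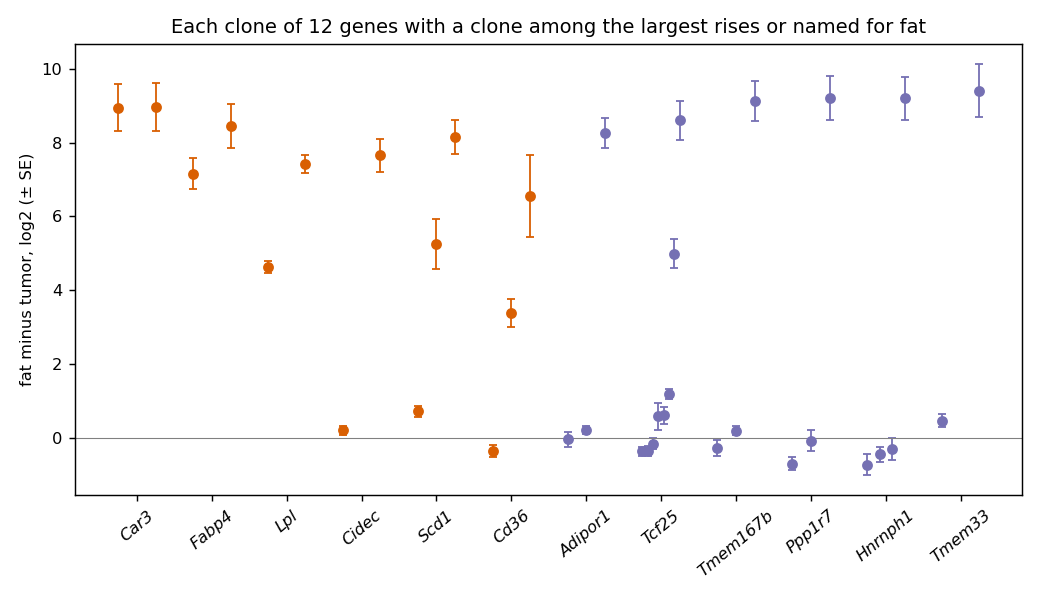
Difference, fat minus tumors (log2, ± SE), for every clone of 12 genes. The Car3, Fabp4 and Lpl clones all rise, while for Cidec, Scd1, Cd36, Adipor1, Tcf25, Tmem167b, Ppp1r7, Hnrnph1 and Tmem33 clones of 1 gene lie far apart.

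Set against each tumor type alone, the fat arrays, which both comparisons share, gave similar totals. Against Wnt-1 tumors 3715 clones were higher and 5102 lower, and against Neu tumors 3481 and 4480. Without sample 44 these were 3330 and 3474, and 3315 and 3285. In 81 clones fat lay between the tumor types, higher than one and lower than the other with both differences called, 47 above Neu and below Wnt-1 tumors and 34 the reverse. Without sample 44 there were 53 such clones, of which 41 were among the 81. Krt19, a luminal keratin, read -0.95, -0.96 and -1.56 in fat, 2.60 ± 0.39 (SD, n = 23) in Wnt-1 tumors and -3.43 ± 1.04 (SD, n = 12) in Neu tumors. Pleiotrophin (Ptn), a secreted growth factor, read -0.16, 0.71 and -0.10, with Wnt-1 tumors at 4.55 ± 0.58 and Neu tumors at -0.64 ± 0.44 (SD). Npy, the appetite peptide, read 0.41, 1.16 and 0.76, with Wnt-1 tumors at -0.40 ± 0.70 and Neu tumors at 4.02 ± 2.00 (SD). For such genes the mean of all tumors lay near neither type, and the pooled comparison did not call these 3 genes.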

How the data were processed

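RNA of intestinal fat, mammary glands and tumors was hybridised with a common reference to arrays of spotted cDNA. Per the study's methods the images were read on a GenePix scanner with ArraySuite, and the authors left out genes of low average measurement quality; the quality scores were not used here, so every clone entered. The authors deposited 1 log2 ratio per clone and array, Cy5 over Cy3, already normalized by an earlier method whose steps are not given in the sources used here. Low ratios were whole multiples of 0.0001 (3031 of 3031 under 0.01, within 0.02 of a step), and 8 of 998400 values were missing. The number of arrays limits the precision.

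Fat and tumor arrays were grouped by title. The deposited log2 ratios were fitted as 2 groups with limma 3.58.1 in R 4.3.3 (lmFit, eBayes), without further normalization, for clones with values on 2 or more arrays and on 50% or more in each group, with Benjamini-Hochberg adjustment. The difference between tumor types was tested in a fit of 3 groups. A fold minimum of 3 follows the methods. Symbols came from the platform annotation: 11860 clones had 1 symbol (7766 genes), 705 several and 2795 none, and clones of a gene were averaged for the lists. Promoters were taken from RefSeq. Named are the genes the study names for fat, the 12 clones that rose most and the 12 that fell most, called with and without fat sample 44, the 4 members of each list with the smallest adjusted p, list members with clones in both directions, and 10 clones between the tumor types; other genes were named after their values were seen. The samples compared, the lists and the tests were chosen with earlier results of these data known. Nothing states that the fat samples came from separate animals, so p-values measure the spread between these samples. The fit pools that spread over both groups, and most arrays are tumors, so it mostly reflects the tumors. Disagreement between the fat arrays is thus weighed only in part. Cdh1 read -9.83, -2.75 and -2.11 on the fat arrays, and the standard error of its difference was 0.64.

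In simulated data of fat against tumors over 15360 clones, 66, 67 and 67 clones were given changes of 1, 2 and 3 on the log2 scale. Of these 71.2%, 88.1% and 91% were called, with 8 false calls. In the deposited data 8194 clones were called, many more than were changed in the simulation. The simulation therefore gives no error rate for the comparison of the real arrays.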

Additional observations from a re-analysis of the deposited data

Results flagged for a closer look

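Fat was called higher than one tumor type and lower than the other in 81 clones. Of those with 1 gene symbol, the 10 with the largest difference between the tumor types were chosen. The choice fixes both that the tumor types differ and that the difference is large, so the difference is given as a description, with no test. For Neu minus Wnt-1 tumors on the log2 scale it was -6.07 for Id4, -6.04 for Krt19, -5.19 for Ptn, -5.00 for 5033421C21Rik, -4.92 for Fermt3, -4.70 for Ikbip and -3.78 for Cnn1, and it was 4.42 for Npy, 4.07 for Tmeff2 and 3.96 for Slc25a34. Sample 44 carried its repeated value of 0.41 for Id4, Npy and Slc25a34. Id4, an inhibitor of helix-loop-helix factors, averaged 3.66 ± 0.38 in Wnt-1 tumors and -2.41 ± 0.40 in Neu tumors (SD). Calponin 1 (Cnn1), a contractile protein of myoepithelium and smooth muscle, averaged 0.97 ± 0.64 and -2.81 ± 1.18 (SD).

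Among 54 groups of arrays examined for a single far value, 2 had one, where chance gives about 1 in 20. Both were the virgin gland array 17, which read -2.29 for Dcaf12 (the other virgin glands -4.17 to -3.67) and -0.0158 for Elf5 (the others -1.23 to -0.90). No explanation was tested for these.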

How the results depend on the processing

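The count of clones at least 3-fold lower in fat was the value that depended most on the processing. Against 1614, it was 427 without fat sample 44 and otherwise up to 1968 with 1 array left out, 539 with array weights, 474 after quantile normalization, 811 with arrays scaled to one median absolute deviation, 639 with ratios beyond 0.01 and 100 set missing, 650 with the most repeated values missing too (chosen after seeing the data), 721 with folds of arithmetic means and 775 by a permutation t-test after the methods, with 100 regroupings pooled over clones in place of the methods' larger number. Rises were 35% of the 3-fold calls, but 58.3% after quantile normalization, 44.8% after scaling and 66.2% without sample 44. All clones lower in fat, 4851, came to 2754 without sample 44 and up to 5037 with another array left out. The 81 clones between tumor types came to 41 to 53 with 1 fat array left out. With clones averaged per gene, fewer features were tested, giving 1646 higher, 2560 lower, 387 at least 3-fold higher and 801 at least 3-fold lower. Of 37 named clones under 16 settings, 584 results kept direction and call, 6 lost the call (the Cd36 clone that fell, and Car8) and none reversed; counts of list genes called moved by over 1.5 times in 90 results and not in 694; list medians moved beyond their spread in 26 results and not in 366, and the sign changed under at least 1 setting for 4 lists of small median, or few genes (pancreas acinar, 0.48, and immediate early, 0.08, both without sample 44; intestinal epithelium and smooth muscle and nerve with another fat array left out). Beyond sample 44 the causes were not tested. No paired analysis was possible because the titles of fat and tumor samples share no replicate numbers.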
